A study of Mus musculus with 3 samples.

Results

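Macrophages of the peritoneal cavity carry a program set by lineage factors common to myeloid cells and by signals of the tissue they live in. A set of 10 symbols chosen for that program was looked up in 3 RNA-seq libraries of primary mouse peritoneal macrophages, and 9 of the 10 had a row among the 20574 gene symbols of the deposited tables. The 9 are the transcription factor genes Cebpa, Cebpb, Irf8 and Gata6, the receptor genes Csf1r and Vsig4, and the effector genes Lyz1, Naip1 and Pld4. Emr1, which encodes the macrophage surface protein F4/80 and is now named Adgre1, matched no row under either symbol or its recorded synonyms and was not analysed here. The members were named by symbol, with earlier results on these tables known, and no threshold on a value chose them.

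The sample titles mark all 3 libraries as WT, and the labels give DMEM as the medium. One library is from macrophages with nothing added, and the labels give no time for it. One is from macrophages kept for 5 h with 5 apoptotic cells per macrophage, after which the apoptotic cells that had not been engulfed were rinsed away. One is from macrophages given 100 ng/ml of lipopolysaccharide (LPS), the bacterial membrane component sensed by the receptor TLR4, for 5 h. The labels name neither the source of the apoptotic cells nor the number of mice. In its title the series is placed under efferocytosis, the clearance of dying cells, and its link to mitochondrial metabolism and repair. With 1 library per condition there is no replicate check, so every difference below is between libraries, without a p-value, and treatment cannot be told apart from time or handling against the untreated library.

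As background, C/EBPα and C/EBPβ bind related DNA sites and act early and late in myeloid differentiation, while IRF8 takes part in the choice of the monocyte and dendritic cell lineages over the neutrophil lineage. CSF1R is the receptor for the growth factors CSF1 and interleukin 34, on which most resident macrophages depend for survival. GATA6, induced by retinoic acid made in the peritoneum, maintains the identity of the large resident peritoneal macrophage, which outnumbers a smaller, monocyte-derived macrophage with more MHC class II. VSIG4 is a complement receptor of resident macrophages, NAIP1 a sensor of bacterial secretion-system needle protein, PLD4 an endolysosomal exonuclease that degrades single-stranded nucleic acids, and LYZ1 a lysozyme, an enzyme that cuts bacterial cell walls.

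Before the values, 2 of the genes need their near-identical copies shown, since fragments from shared stretches can be given to either copy. Lyz1 lies next to Lyz2, the lysozyme gene widely expressed in myeloid cells. Over 447 coding bases each, the 2 differ at 22 positions (95.1% identity), and the longest identical run is 118 bases. The first 90 coding bases are printed 5′ to 3′ from the GENCODE M21 transcripts on GRCm38, the minus strand of chromosome 10, with the 7 differing bases in capitals.
Lyz1: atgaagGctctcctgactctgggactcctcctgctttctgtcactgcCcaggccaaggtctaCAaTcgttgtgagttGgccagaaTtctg
Lyz2: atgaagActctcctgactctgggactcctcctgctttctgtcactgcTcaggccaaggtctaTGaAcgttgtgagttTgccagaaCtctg
The Lyz1 stretch lies at chr10:117292749-117292838 and the Lyz2 stretch at chr10:117282153-117282242. Of the distinct 50-base words of the Lyz1 transcript, 16.1% also occur in Lyz2, and of its 100-base words 2.06%. For Naip1, 32.5% of the 50-base words and 13.6% of the 100-base words occur in other Naip genes or the pseudogene Naip3-ps1. None of the other 8 symbols, Emr1 included, shared a word of either length with the transcripts of another gene. Lyz2 was not analysed here, so the levels of Lyz1 and Naip1 are uncertain where the counting could split fragments between copies.

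The values were taken as FPKM, that is, fragments scaled to transcript length and to the number of mapped fragments, so that genes of different length can be set beside each other. Where 3 values follow each other below, they stand in the order untreated, apoptotic cells, LPS. Their sums are 199881, 197222 and 200224 FPKM. From the smallest steps between values, 1 FPKM on 1 kb of transcript stood for about 3.23, 3.17 and 2.94 reads. Exact 0 is frequent: of the 4079 genes that reach at least 8.81 FPKM in some library, as all 9 members do, the share listed at 0 is 38.8%, 23.1% and 21.4%. Housekeeping genes are among them, with Eef1a1 at 5641 FPKM without treatment and a listed 0 in both other libraries. A listed 0 can therefore be a failed estimate, and is given as listed and not read as absence. A gene has a ratio here if neither of its 2 values is a listed 0.

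Of the 27 values of the 9 genes, 11 are listed at 0: 2 without treatment (Gata6 and Irf8), 5 with apoptotic cells (Gata6, Vsig4, Lyz1, Cebpb and Irf8) and 4 with LPS (Naip1, Lyz1, Csf1r and Cebpb). Cebpa and Pld4 are above 0 in all 3 libraries, Csf1r, Naip1 and Vsig4 in 2, and Lyz1, Cebpb, Gata6 and Irf8 in 1. Thus 2 of 9 members (22.2%) have a value everywhere, against 40.2% of the 4079 genes reaching the same level.

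**Figure D1:**
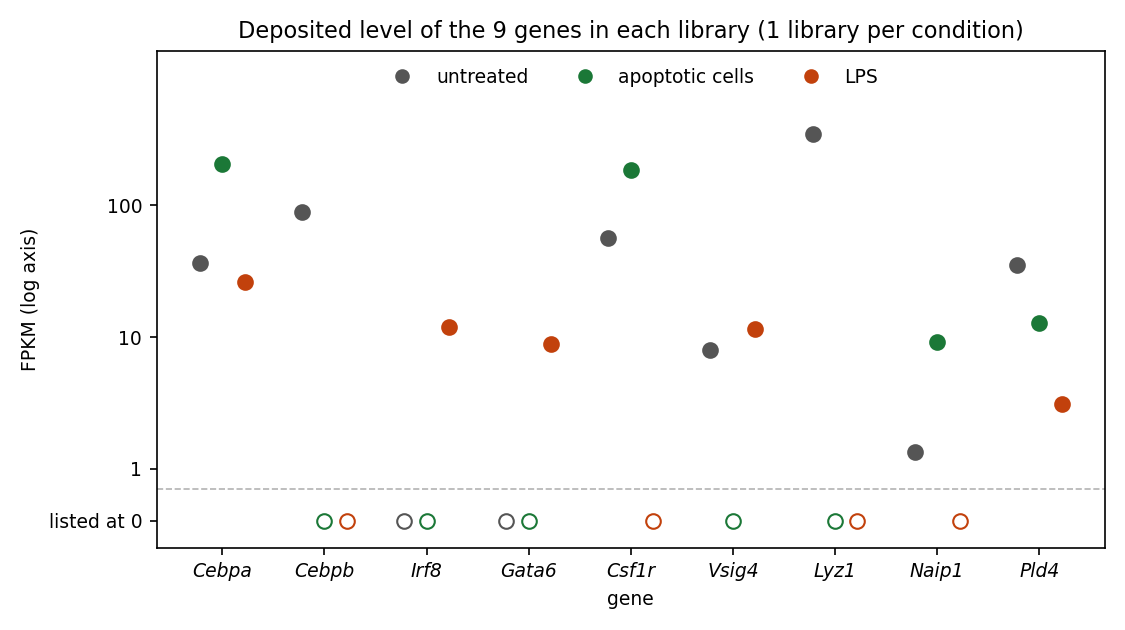
Level of each of the 9 genes in FPKM on a log axis, with 1 point per library coloured by condition and open points for values listed at 0. Cebpa and Csf1r stand at 206 and 185 FPKM with apoptotic cells, Pld4 is lower in both treated libraries, and the untreated point of Lyz1, at 349 FPKM, is the highest level drawn.

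Cebpa, the gene of C/EBPα, a factor of early myeloid commitment, had 36.6 FPKM without treatment, 206 with apoptotic cells and 26.0 with LPS. The apoptotic-cell library is the high one, 5.62-fold above the untreated library and 7.92-fold above LPS in FPKM. On the log2(FPKM + 1) scale these are ratios of 2.46 and 2.94. LPS against untreated gave a ratio of -0.48, which is -0.07 relative to the median of all genes in that comparison and 0.13 with median-of-ratios scaling, so no direction is given for it. By the step estimate and its longest coding transcript, the 3 values rest on about 289, 1535 and 182 reads. Among the genes above 0 in each library, Cebpa lay at the 88.5th percentile without treatment, the 98.1st with apoptotic cells and the 86.1st with LPS. The gene (chromosome 7, 35119293 to 35121928 in GRCm38) overlaps an antisense gene, Gm45091, and the strandedness of the libraries is not given in the sources used here.

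Cebpb, whose product drives inflammatory and late myeloid genes, had 89.3 FPKM without treatment and a listed 0 in both treated libraries. In the untreated library it stood 2.44 times as high as Cebpa. Cebpb has a single exon on chromosome 2 (167688915 to 167690418), of which 908 bases overlap the annotated span of Tmem189 on the opposite strand. Tmem189 has the same set of listed zeros: 61.7 FPKM without treatment and a listed 0 in both others. Whether these zeros are linked to the overlap was not tested.

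Of the remaining C/EBP genes with a row, Cebpg, which encodes a small family member without an activation domain, was nearly level at 42.4, 42.1 and 31.3 FPKM. Cebpa was therefore 0.863 times as high as Cebpg in the untreated library, 4.89 times with apoptotic cells and 0.831 times with LPS. Cebpd, the acute-phase member, was listed at 1.67, 1.54 and 6.15 FPKM, with LPS the high library (log2 ratio 1.42 against untreated). Cebpz, grouped here by its symbol, was listed at 22.7, 9.28 and 7.38 FPKM and was over 2-fold lower in both treated libraries as deposited. Cebpe, a factor of granule formation in neutrophils, was listed at 0 in every library. Among these genes the higher level with apoptotic cells was seen for Cebpa and for none of Cebpd, Cebpg and Cebpz.

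Irf8 (chromosome 8, 120736358 to 120756694) had 11.9 FPKM with LPS and a listed 0 in both other libraries. About 91 reads stand behind the LPS value, and the gene lies wholly within the span of the annotated gene Gm20388 on the same strand. Of the other interferon regulatory factor genes, Irf7, the amplifier of type I interferon production, was listed at 7.83, 19.4 and 0 FPKM (log2 ratio 1.21 for apoptotic cells against untreated). Irf4, a factor of alternatively activated macrophages and lymphocytes, was listed at 0, 5.12 and 7.82 FPKM, Irf9, part of the interferon-response complex ISGF3, at 0, 7.04 and 9.21 FPKM, and Irf2 at 15.9 FPKM with LPS alone. All 4 of Irf2, Irf4, Irf8 and Irf9 are listed at 0 without treatment, so no untreated level is at hand to compare with.

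Gata6, the factor that marks the large peritoneal macrophage, had 8.81 FPKM with LPS, about 77 reads, and a listed 0 in both other libraries. Its level with LPS lay at the 68.6th percentile of genes above 0. The gene lies on chromosome 18 from 11052064 to 11085635 and overlaps 504 bases of the noncoding gene 1010001N08Rik on the opposite strand. Tgfb2, a gene that depends on GATA6 in these cells, also has a value with LPS alone, at 9.54 FPKM. Neither gene has a ratio, so these values cannot bear on that dependence. A list of retinoic acid genes and genes upstream of Gata6, Wt1 among them, had 10 genes with a row. Of these, Aldh1a2, the enzyme that makes retinoic acid, was listed at 0, 4.44 and 14.2 FPKM. The receptor gene Rxra had 0, 61.9 and 0 FPKM, Rxrb 0, 11.5 and 9.39 FPKM, and Rarg 3.73, 2.65 and 3.32 FPKM. In this list 3 genes were above 0 in both the untreated and the apoptotic-cell library, and 2 in both the untreated and the LPS library. None of them had a log2 ratio of (FPKM + 1) past 2-fold in these comparisons. That scale understates low genes such as Rarb (0.112 and 0.834 FPKM without treatment and with apoptotic cells). Aldh1a2 had a log2 ratio of -1.48 for apoptotic cells against LPS.

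Csf1r, the CSF1 receptor gene, had 56.3 FPKM without treatment, 185 with apoptotic cells and a listed 0 with LPS. With apoptotic cells it was 3.28-fold higher in FPKM (log2 ratio 1.70), from about 822 to 2597 reads. It stood 1.54 times as high as Cebpa in the untreated library and 0.898 times with apoptotic cells. Its percentile among genes above 0 was 92.9 without treatment and 97.8 with apoptotic cells. The gene (chromosome 18, 61100598 to 61132149) overlaps 873 bases of Hmgxb3 on the opposite strand, which was listed at 7.33, 3.89 and 3.74 FPKM and so has no value listed at 0. Of the ligands, Csf1 was listed at 0, 7.16 and 6.47 FPKM and Il34 at 0 throughout. Among the related receptors and cytokines, Csf2ra had 18.8 FPKM and Csf3 80.2 FPKM, each with a listed 0 in both treated libraries. Csf2, the granulocyte-macrophage growth factor gene, was listed at 5.84 FPKM without treatment, 0 with apoptotic cells and 92.6 with LPS.

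Vsig4, the complement receptor of resident macrophages, had 8.04 FPKM without treatment, a listed 0 with apoptotic cells and 11.6 with LPS. The LPS value was 1.44-fold higher (log2 ratio 0.47), on about 33 and 40 reads. That is under 2-fold as deposited and a ratio of 1.04 with median-of-ratios scaling. Itgax, a chain of complement receptor 4, also has a listed 0 in the same library, at 7.94, 0 and 19.3 FPKM. So does the complement receptor gene C3ar1, at 20.0, 0 and 11.4 FPKM. C5ar1, the receptor for the chemoattractant C5a, was above 0 throughout, at 33.8, 308 and 175 FPKM. The complement receptor gene Cr2 was too, at 3.44, 0.0965 and 0.198 FPKM. Vsig4 lies on the X chromosome from 96247203 to 96293438 and overlaps no other annotated gene.

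Lyz1 had 349 FPKM without treatment, above 99.0% of the genes with a value there, and a listed 0 in both treated libraries. It is the highest of all the levels of the 9 genes. It rests on about 1226 reads, some of which could come from Lyz2. Tyrobp and Fcer1g, signalling adaptors of myeloid receptors, also had a listed 0 in both treated libraries, with 413 and 290.2 FPKM without treatment. Cfp, the complement stabiliser properdin, did too, with 156 FPKM without treatment. Of the 4079 genes that reach at least 8.81 FPKM, 23.5% have a value in 1 library alone. Shared zeros are therefore not read as a shared change in expression.

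Naip1 had 1.34 FPKM without treatment, 9.20 with apoptotic cells and a listed 0 with LPS. The apoptotic-cell level was 6.88-fold higher in FPKM (log2 ratio 2.13), on about 23 and 152 reads, so the untreated level rests on the fewest reads of the 7 members above 0 in that library. Its relatives Naip2, a sensor of the secretion-system rod, and Naip5, a sensor of flagellin, had 20.7 and 3.54 FPKM with apoptotic cells and a listed 0 in both others. Naip1, Naip2 and Naip5 thus all have their highest listed value with apoptotic cells, but they share sequence and are not independent of one another. Their common partner Nlrc4 was listed at 7.15 FPKM with LPS alone. Pycard, which encodes the inflammasome adaptor ASC, was above 0 throughout at 16.4, 69.1 and 7.79 FPKM, high with apoptotic cells as well (log2 ratio 2.01 against untreated). Casp1, the protease these complexes activate, was listed at 0, 21.9 and 25.3 FPKM. Naip1 lies on chromosome 13 from 100407764 to 100452869, minus strand, and holds the pseudogene Rpl31-ps13 on the opposite strand.

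Pld4 is the second gene above 0 in all 3 libraries, and its order differs from that of Cebpa. It had 35.2 FPKM without treatment, 12.9 with apoptotic cells and 3.10 with LPS, on about 205, 70 and 16 reads. Against untreated it was 2.74-fold lower in FPKM with apoptotic cells (log2 ratio -1.39) and 11.4-fold lower with LPS (-3.14). Relative to the median of all genes these ratios are -1.25 and -2.74. Between the treated libraries it was 4.15-fold higher with apoptotic cells (1.76). Cebpa and Pld4 stood at nearly the same level in the untreated library (ratio 1.04), while Cebpa was 15.97 times as high as Pld4 with apoptotic cells and 8.37 times with LPS. Pld1, a phospholipase of signalling pathways, was listed at 1.81, 0 and 2.67 FPKM, Pld2 at 6.31 FPKM with LPS alone, and Pld5 and Pld6 at 0 throughout. Pld4 lies on chromosome 12 from 112760655 to 112768990 and overlaps no other annotated gene.

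Pld4 is also expressed by B cells and plasmacytoid dendritic cells, and the summed B-cell markers and the plasmacytoid gene Siglech were lower in the treated libraries. The 12 B-cell markers sum to 863, 236 and 201 FPKM, with 4, 9 and 11 of them above 0. For apoptotic cells against untreated 4 of these markers had a ratio and 4 were at least 2-fold lower, and for LPS 3 of 3 were. Ly6d, at 563, 42.7 and 73.9 FPKM, makes up most of the untreated sum, while Cd79a, Cd79b, Ms4a1, Pax5, Ebf1, Cd22 and Fcrla were listed at 0 there. Siglech was listed at 2.48, 0.394 and 0 FPKM. The 7 dendritic cell markers with a row sum to 10.1, 26.6 and 57.4 FPKM, led in the treated libraries by Ccr7, a gene also induced by activation. The part of these cells in the Pld4 difference was not tested, and in bulk RNA fewer cells of a type and less RNA per cell cannot be told apart.

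**Figure D2:**
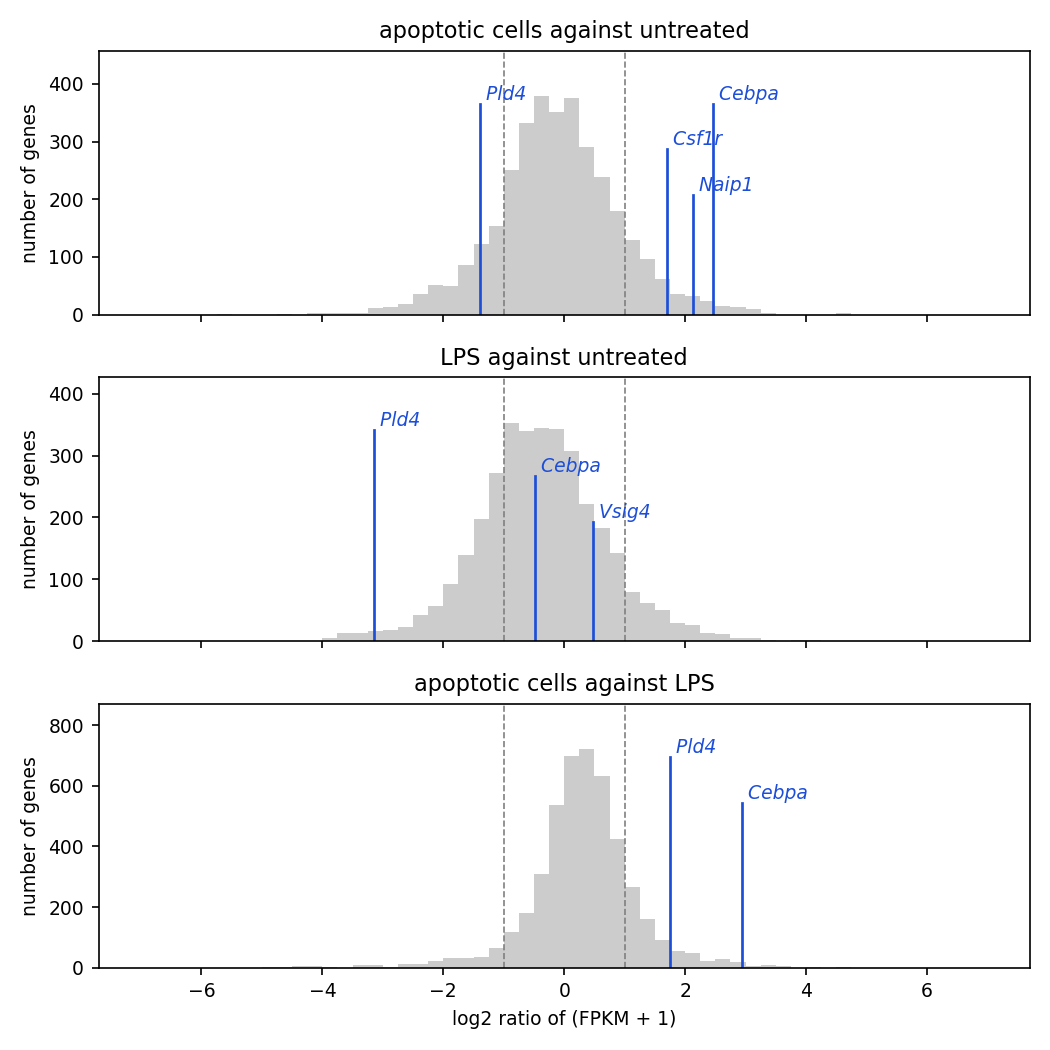
Number of genes by log2 ratio of (FPKM + 1) in each of the 3 comparisons (grey bars, genes above 0 in both libraries with a mean of at least 1 FPKM), with the members that have a ratio as blue lines and 2-fold as dashed lines. Cebpa, Naip1 and Csf1r lie in the upper tail with apoptotic cells, and Pld4 lies in the lower tail with LPS.

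Across comparisons, 4 of the 9 members could be set against untreated for apoptotic cells, and 3 were at least 2-fold higher (Cebpa, Naip1 and Csf1r) and 1 lower (Pld4), with a median ratio of 1.91. Of all 3369 genes compared this way, 12.4% were at least 2-fold higher (418) and 16.4% lower (554), around a median of -0.13. With median-of-ratios scaling that split was 537 higher and 415 lower. Cebpa lay above 98.6% of these genes, Naip1 above 97.7%, Csf1r above 95.7% and Pld4 above 9.85%. For LPS 3 members had a ratio: Pld4 was lower, Cebpa and Vsig4 were within 2-fold, and the median was -0.48. Among 3421 genes 8.51% were higher (291) and 26.2% lower (896), around a median of -0.40, a split of 650 and 436 with median-of-ratios scaling. Pld4 lay above 1.23% of them. For apoptotic cells against LPS the 2 members with a ratio, Cebpa and Pld4, were both at least 2-fold higher, where 15.7% of 4599 genes were higher (722) and 5.54% lower (255), around a median of 0.32. That split was 416 and 448 with median-of-ratios scaling. The comparisons share libraries and so are not independent, and each count rests on 2 to 4 members.

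Median-of-ratios scaling moved the median of all genes to 0.06, 0.12 and -0.02 in the 3 comparisons in the order above. With LPS against untreated that median was -0.26 with upper-quartile scaling and -0.53 when every library was brought to the same total. For apoptotic cells against LPS it was 0.21 with upper-quartile scaling. Of the 11 reference genes with a row, 7 had a ratio for apoptotic cells against untreated, 0 of them past 2-fold, with a median of 0.55. In the other comparisons 7 had a ratio, with medians of -0.02 for LPS against untreated and 0.51 for apoptotic cells against LPS, again with 0 past 2-fold. Gapdh was listed at 436, 862 and 508 FPKM and Actb at 1304, 1435 and 1011 FPKM, so neither approached the 5.62-fold of Cebpa.

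**Figure D3:**
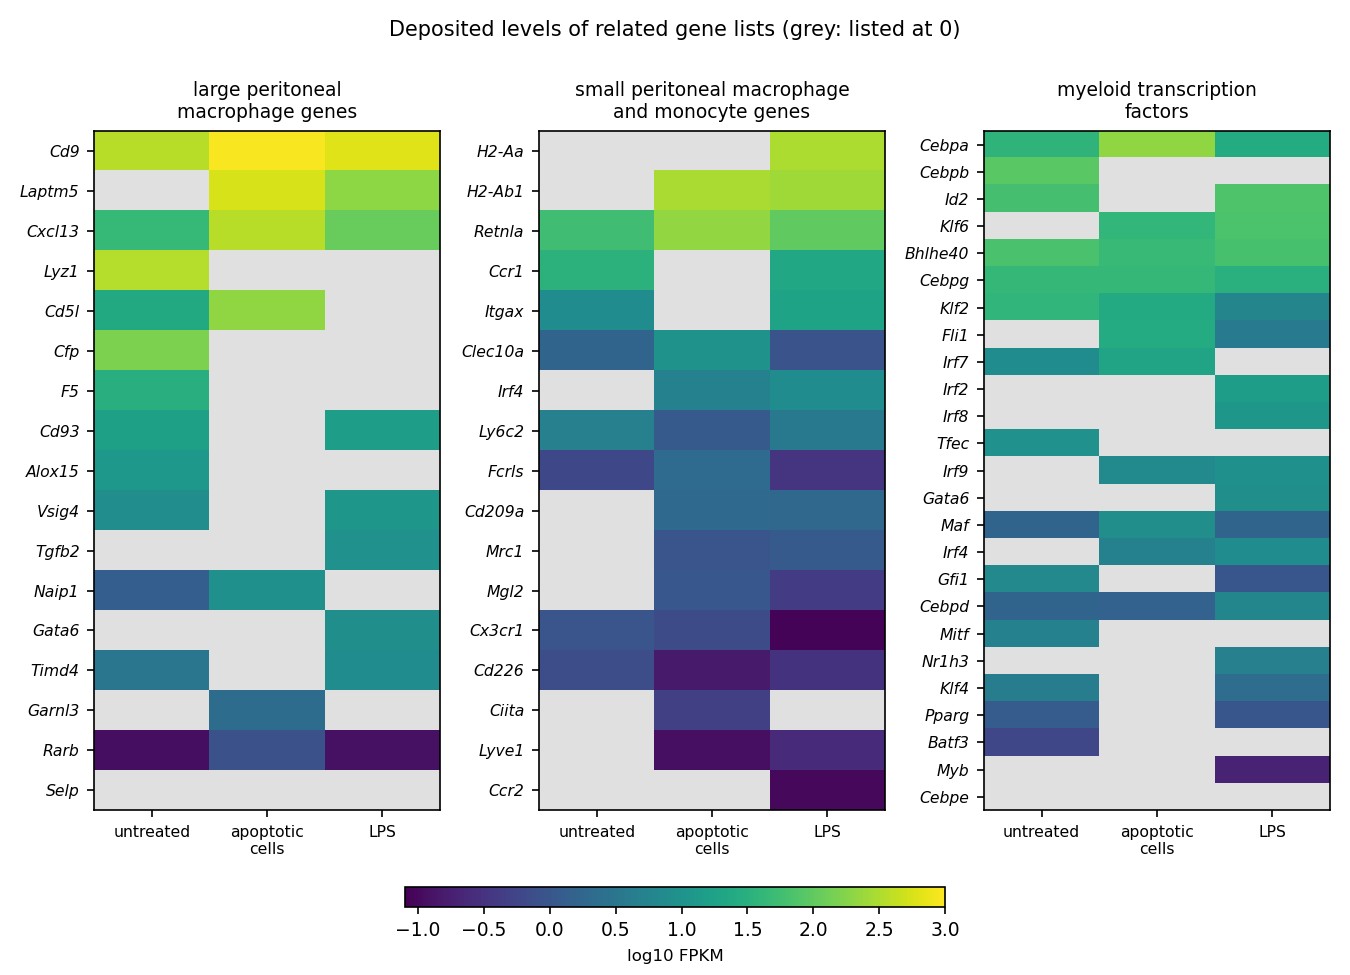
Level as log10 FPKM (colour) of genes with a row in 3 related lists, with the libraries as columns and grey for values listed at 0. Cebpa is brightest with apoptotic cells, and 3 of the 17 large peritoneal macrophage genes have a value in every library.

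The list of large peritoneal macrophage genes had 17 of 26 with a row, 13 of them not among the 9 genes above. Of those 13, 4 had a ratio for apoptotic cells against untreated, with 3 past 2-fold upwards and 0 downwards and a median of 2.17. They were Cxcl13, a B-cell attracting chemokine gene, at 44.7, 364 and 112 FPKM, Cd5l, a macrophage survival factor gene, at 24.995, 210.04 and 0, and the tetraspanin gene Cd9 at 357, 912 and 630.5. With LPS 2 of 5 were higher and 0 lower (median 0.82): Cxcl13 and Timd4, the phosphatidylserine receptor gene, at 3.29 and 7.74 FPKM. F5, a coagulation factor gene, and Alox15, a lipoxygenase gene, had the same listed zeros as Lyz1, at 29.6 and 12.3 FPKM without treatment and at 0 in both treated libraries. Selp was listed at 0 throughout. Within the list, then, the few genes with a ratio against untreated were higher or within 2-fold on this scale. F5, Alox15, Cfp and Lyz1 had a value in the untreated library alone. The reverse was also seen: Laptm5, a lysosomal membrane protein gene, was listed at 0, 560 and 199 FPKM, Garnl3 at 2.24 FPKM with apoptotic cells alone, and Tgfb2 and Gata6 had a value with LPS alone.

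Of the 18 small peritoneal macrophage and monocyte genes with a row, 7 had a ratio for apoptotic cells against untreated, 2 higher and 2 lower, with a median of -0.21. Retnla, a marker of alternative activation, was listed at 54.5, 217 and 99.9 FPKM and the lectin gene Clec10a at 1.67, 9.78 and 0.905, both high with apoptotic cells. The lower ones include the monocyte gene Ly6c2 at 4.90, 1.16 and 3.60 FPKM. With LPS 1 of 9 was higher, Itgax, and 1 lower (median -0.39). The MHC class II genes H2-Ab1 and H2-Aa were listed at 0 in the untreated library, so their levels with apoptotic cells (307 and 0 FPKM) and with LPS (260.5 and 308 FPKM) have no untreated value beside them. Ccr2, the receptor of recruited monocytes, did not pass 0.0984 FPKM.

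Among the pan-macrophage genes, 14 of 22 had a row. Of the 11 that are not members, 5 had a ratio for apoptotic cells against untreated, 2 of them past 2-fold upwards and 0 downwards, with a median of 0.87. The high-affinity antibody receptor gene Fcgr1 was listed at 0.115, 3.29 and 0.377 FPKM and the lectin gene Clec4a2 at 2.51, 6.601 and 0 FPKM. Cd14, the LPS co-receptor gene, was listed at 303, 555 and 0 FPKM. Csf1r and Cd14, both defining genes of the labelled cell type, thus had high levels without treatment and with apoptotic cells and a listed 0 with LPS. Cd68, Lyz2, Spi1 and Mertk, which also define it, were not analysed here. In the LPS library the pan-macrophage genes above 0 were 6 of 14, among them Lgmn, a lysosomal protease gene, at 101 FPKM, and Pld4.

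The myeloid transcription factor list had 26 of 36 with a row, 22 of them not members. For apoptotic cells against untreated 3 of 7 were past 2-fold upwards and 0 downwards, with a median of -0.01. They include Irf7 and Maf, a basic leucine zipper factor of macrophages, at 1.67, 8.45 and 1.69 FPKM. With LPS against untreated 1 of 10 was higher, Cebpd, and 2 were lower (median -0.31): Klf2, a factor that restrains inflammatory genes, at 39.4, 25.2 and 5.87 FPKM and Gfi1, a repressor in the neutrophil lineage, at 6.70, 0 and 1.005 FPKM. Bhlhe40 stayed within 2-fold at 66.4, 46.2 and 63.9 FPKM.

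For Cebpa and Pld4, the closest of 28 genes from these lists above 0 in all libraries were sought by the distance between their pairs of log2 ratios against untreated. Clec10a was closest to Cebpa (distance 0.45), then Pycard (0.68). Klf2 lay at a distance of 0.96 from Pld4 and was less reduced with apoptotic cells. Likeness over 3 libraries with a shared control is a description of these values.

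**Figure D4:**
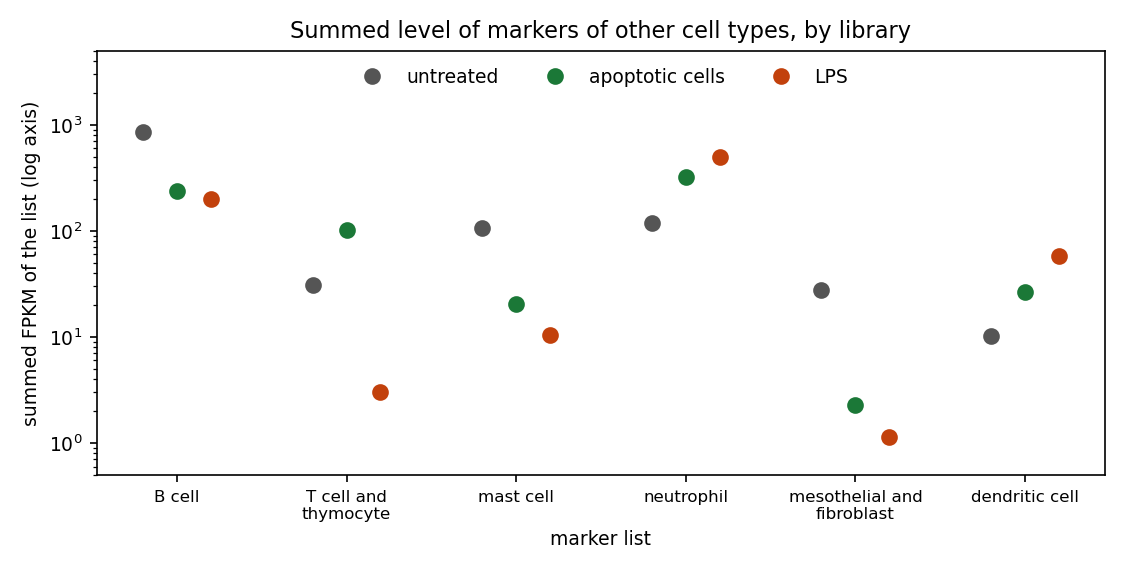
Summed FPKM of the markers with a row for 6 other cell types, on a log axis, with 1 point per library. B-cell, mast cell and mesothelial markers are highest in the untreated library, T-cell and thymocyte markers with apoptotic cells, and neutrophil and dendritic cell markers with LPS.

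Markers of further cell types also differed between the libraries. T-cell and thymocyte markers sum to 31.0, 101 and 3.03 FPKM, with 4, 11 and 7 of 13 above 0. Rag1 alone contributes 41.2 FPKM with apoptotic cells, while Lck and Tcf7 are listed at 0 there. For apoptotic cells against untreated 4 of these markers had a ratio, with 0 past 2-fold upwards, 0 downwards and a median of -0.29, so the higher sum comes from genes listed at 0 without treatment. For apoptotic cells against LPS 5 of 5 were higher. The sum is highest in the library where Cebpa, Csf1r and Naip1 are highest, and its part in their values was not tested. Mast cell markers sum to 106, 20.4 and 10.4 FPKM over 9 genes, with Ms4a2 at 0 throughout. Mesothelial and fibroblast markers sum to 27.7, 2.28 and 1.13 FPKM over 10 genes, with Lum at 0 throughout. Both sums have the order of Pld4, highest without treatment and lowest with LPS. Between the treated libraries, though, 0 of the 6 mast cell markers with a ratio were past 2-fold (median 0.12). Only 1 mesothelial and fibroblast marker had a ratio there. Neutrophil markers sum to 119, 325.05 and 496 FPKM over 11 genes, with 7, 8 and 4 of them above 0, so fewest with LPS. The sums come mostly from S100a8 (48.1, 116 and 222 FPKM) and Lcn2 (64.1, 187 and 272 FPKM). Mmp8 was listed at 2.48, 16.0 and 0.548 FPKM, and Elane and Retnlg were at 0 throughout. For LPS against untreated 4 of these markers had a ratio: S100a8 and Lcn2 were past 2-fold upwards and Mmp8 downwards. For apoptotic cells against untreated 4 of 6 were higher and 0 lower. The part of these other cell types in the member values was not tested.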

How the data were processed

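RNA from 3 samples of peritoneal macrophages was sequenced, 1 library per condition, grouped by the labels. The deposited values were taken as FPKM, made by the authors with cutadapt 1.14, TopHat2 2.1.0, Cufflinks 2.2.1 and Cuffdiff on mm10, per the submitters' processing notes. The sources used here give no unit, options, annotation or strandedness. Depth was estimated from the steps of the smallest values of coding genes with 1 transcript, with a fitted length offset, and read numbers are approximate. Ratios are log2((FPKM + 1) / (FPKM + 1)) for genes above 0 in both libraries, which understates differences of low genes. Counts over all genes require a mean of at least 1 FPKM and use 2-fold. Counts within related lists use no such filter and leave out the 9 members; some genes in these counts and sums are not reported here by name. The members, the lists, the rule for naming (all members, then up to 6 genes per list by ratio or level, some added after their values were seen) and the likeness measure were chosen with earlier results of these data known. Alternatives were other pseudocounts, filters, thresholds, scalings and handling of 0. Coordinates, overlaps and sequences are from GENCODE M21 (GRCm38, equivalent to mm10). The ratio calculation was run on simulated data, which checks the arithmetic and not the deposited values or their listed zeros. Python 3.11.15, pandas 2.3.3 and numpy 2.4.6 were used.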

Additional observations from a re-analysis of the deposited data

How the results depend on the processing

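Other pseudocounts and scalings gave 45 recomputed member ratios, of which 34 stayed within 0.3 log2 of the reported value and 11 moved further, and 0 of those past 2-fold changed sign; the other settings leave a ratio as it is and change only what is counted. The ratios moved were those of Naip1 (1.16 with a pseudocount of 5 to 2.69 with 0.1), Pld4, Vsig4 and, for LPS against untreated and apoptotic cells against LPS, Cebpa, whose ratio for LPS against untreated went from -0.48 to 0.13 with median-of-ratios scaling. With a listed 0 taken as a value, 4 members were at least 2-fold lower and 3 higher for apoptotic cells against untreated. For LPS against untreated 5 were lower and 2 higher, and for apoptotic cells against LPS 3 were lower and 4 higher. These are counts of 7, 9 and 7 members. The genes tested then rose to 6484, 6577 and 6840 in the same order. Of them 2682 were higher and 1378 lower, 2605 and 1674, and 1741 and 1423. Counts from settings that test different numbers of genes are not directly comparable. Median-of-ratios scaling put 1 of 3 members 2-fold higher with LPS, Vsig4. It gave 650 and 436 of 3396 genes with LPS and 416 and 448 of 4604 for apoptotic cells against LPS. At a 4-fold threshold 0 members were lower with apoptotic cells against untreated and 1 was higher against LPS, and all genes gave 96 and 143, 68 and 194, and 148 and 90. At 1.5-fold they gave 746 and 1021, 543 and 1461, and 1537 and 496. With a pseudocount of 5 they gave 235 and 228, 164 and 321, and 278 and 155. Changing the threshold or the pseudocount left 3369, 3421 and 4599 genes tested. Genes above 0 in all 3 libraries left 1 member higher with apoptotic cells against untreated, since Naip1 and Csf1r drop out. Of the 2891 genes then tested, 353 were higher with apoptotic cells against untreated and 464 with apoptotic cells against LPS. A mean of at least 5 FPKM, with fewer genes tested, gave 268 of 2054 lower with apoptotic cells and 429 of 2091 lower with LPS. For apoptotic cells against LPS it gave 398 higher and 163 lower of 2606. Rescaling to a sum of 1000000 gave 988 of 4297 lower, 1418 of 4210 lower, and 1262 and 390 of 5635. No paired analysis was possible because each condition has 1 library, and leaving out a library would leave no comparison. Most member comparisons lack a ratio because of a listed 0, and the part of depth in those zeros was not tested. For Pld4 with LPS and Naip1 and Vsig4 without treatment, about 16, 23 and 33 reads also limit precision.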
